A study of Mus musculus with 12 samples.

Results

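The MHC class II loading machinery was followed through 10 genes matched by symbol among the 31054 features counted in the treated libraries. They comprise 4 classical genes (H2-Aa, H2-Ab1, H2-Eb1 and Cd74), 5 accessory genes (H2-DMa, H2-DMb1, H2-DMb2, H2-Oa and H2-Ob) and the regulator Ciita. All 10 passed the filter on low counts in every comparison between groups. The genes were listed by function and not by their values, although earlier results of these data were known when the list was drawn up.

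The study asked how microglia-like cells (MLCs) that arise from transplanted hematopoietic stem and progenitor cells (HSPCs) compare with microglia, and whether the route of dosing matters. Recipients were C57BL/6J mice conditioned with busulfan and given lineage-negative HSPCs of male donors carrying a lentiviral GFP vector, either intravenously (i.v.) or into the lateral ventricle of the brain (i.c.v.). Brains were taken 12 to 13 months after dosing per the design text, while the age label of the same animals reads 22 to 28 weeks, and the 2 statements were not reconciled here. From each of 4 mice (i.v.: female mouse 2 and male mouse 27; i.c.v.: female mouse 4 and male mouse 19), CD45+ CD11b+ CX3CR1+ cells were sorted into a GFP+ library (MLCs) and a GFP- library, which the study calls endogenous microglia. One treatment-naive C57BL/6J animal, aged 8 to 12 weeks, gave 1 library each labelled as microglia, astrocytes, neurons and peripheral blood mononuclear cells (PBMCs). All treated animals also received non-transduced total bone marrow i.v. after the transduced cells, so GFP- cells of donor origin cannot be told apart from host microglia by the sort.

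Class II molecules are pairs of an alpha and a beta chain that carry peptides from the endosome to the cell surface, where CD4+ T cells read them. H2-Aa and H2-Ab1 encode the chains of I-A. H2-Eb1 encodes the beta chain of I-E, whose alpha chain gene is not functional in C57BL/6 mice. Cd74 encodes the invariant chain, which occupies the groove until it is cut down to the CLIP peptide. The heterodimer H2-M, made from H2-DMa with H2-DMb1 or H2-DMb2, removes CLIP and lets better-fitting peptides bind, and H2-O, made from H2-Oa and H2-Ob, inhibits H2-M and is best known from B cells. Ciita encodes the transactivator that is recruited to class II promoters by RFX, CREB and NF-Y factors bound at the X and Y boxes. Resting microglia express class II genes at low levels, and the genes are induced in inflammation, typically by interferon-gamma through Ciita.

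Of the 10 genes, 8 lie on chromosome 17, Ciita lies on chromosome 16 from 10480059 to 10528418, and Cd74 lies elsewhere (GRCm38, GENCODE vM21). On chromosome 17 the order is H2-Oa (34092340 to 34095234), H2-DMa (34119541 to 34139101), H2-DMb2 (34143307 to 34151555), H2-DMb1 (34153072 to 34160230), H2-Ob (34238903 to 34254414), H2-Ab1 (34257689 to 34269419), H2-Aa (34282744 to 34287823, minus strand) and H2-Eb1 (34305867 to 34316674). H2-Eb1, H2-DMa, H2-Oa and Ciita each overlap an annotated gene on the opposite strand that was also counted (Gm20513, Brd2, BC051537 and Dexi). In the last 500 bases of its longest transcript, H2-DMb1 shares 25.3% of its 31-base words with H2-DMb2, so counts of this pair are uncertain where reads could belong to either. The same stretch of H2-DMb2 shares such words with 721 genes, the most with Zw10 (13.8%).

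Promoter sequences of 6 members are shown because these genes share the Y box letters, and some also the X box letters, although their levels did not move alike. The letters searched, on both strands of the windows from 250 bases before to 50 bases after each RefSeq start (GRCm38.p6), were an X box (the first run of capitals below, with any base allowed at the places of its letters after AAC and before ATGATG) and TGATTGG for the Y box, and the matches do not overlap each other. They were chosen after the sequences were seen. The X box letters were found in 0.137% and the Y box letters in 7.82% of 32851 windows, and both together in 0.0274%. The stretches below run 5′ to 3′ on the gene's strand, all within chromosome 17 and before the RefSeq start, with matched letters in capitals. Those of H2-DMb1 and H2-DMb2 lie inside the GENCODE gene spans given above, and that of H2-Oa partly, since RefSeq and GENCODE place these starts differently.
H2-Eb1 (chr17:34305770-34305822, plus): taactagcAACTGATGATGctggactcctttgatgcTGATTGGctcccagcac
H2-DMb1 (chr17:34153091-34153144, plus): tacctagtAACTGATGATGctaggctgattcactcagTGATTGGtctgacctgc
H2-DMb2 (chr17:34145120-34145173, plus): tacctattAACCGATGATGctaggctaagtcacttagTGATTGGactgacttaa
H2-Ob (chr17:34238812-34238862, plus): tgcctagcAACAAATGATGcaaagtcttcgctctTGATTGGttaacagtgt
H2-Aa (chr17:34287857-34287911, minus): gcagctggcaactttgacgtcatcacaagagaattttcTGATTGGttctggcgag
H2-Oa (chr17:34092296-34092350, plus): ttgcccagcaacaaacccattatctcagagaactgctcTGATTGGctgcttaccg
In H2-Eb1, H2-DMb1, H2-DMb2 and H2-Ob the X box letters stood 89, 92, 121 and 85 bases before the start and were followed after 17, 18, 18 and 15 bases by the Y box letters. In H2-Aa and H2-Oa only the Y box letters were matched, 50 and 45 bases before the start. Neither of the 2 H2-DMa windows held either set of letters, and the windows of H2-Ab1, Ciita and Cd74 were not used here. Only these letters were searched, so a window without a match is not shown to lack an X or Y box.

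The 8 treated libraries held 2266 to 4555 cells and 4970758 to 16514669 UMIs each after filtering, and the naive libraries 341 to 1274 cells. The deepest cells were those of mouse 2's i.v. GFP+ library, with a median of 3499 UMIs per cell, against 842 to 1307.5 in the other 7 treated libraries and 425 in naive microglia. Any pair of libraries shared at most 8 cell barcodes. All 8 microglial markers listed were detected in each treated library, with a summed level of 3507 to 4450 CPM in i.v. GFP+, 5531 to 6778 in i.c.v. GFP+ and 7846 to 11603 in GFP- libraries. CPM is the usual scaled level, UMIs of a gene relative to all UMIs of the library. Since UMIs were counted at transcript ends, levels are compared between libraries and not between genes, and p-values rest on 2 mice per route.

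The 4 classical genes moved together over a wide range. H2-Ab1, the I-A beta chain, was at 4988 and 4865 CPM in i.v. GFP+ (mice 2 and 27), 117 and 548 CPM in i.c.v. GFP+ (mice 4 and 19), 878 and 571 CPM in i.v. GFP- and 933 and 964 CPM in i.c.v. GFP-. Both i.v. GFP+ libraries thus stood above every other treated library, both i.c.v. GFP+ libraries stood below every GFP- library, and the i.c.v. GFP+ pair differed from each other by 4.67-fold. H2-Aa, the I-A alpha chain, was at 5253 and 5614 CPM in i.v. GFP+ and at 138 and 674 CPM in i.c.v. GFP+, with 698 to 1217 CPM in GFP-. H2-Eb1 was at 5060 and 4751 CPM against 107 and 524 CPM, with 586 to 998 CPM in GFP-. Cd74 was at 11331 and 12619 CPM against 416 and 1520 CPM, with 1472 to 2576 CPM in GFP-. For H2-Aa and H2-Eb1, as for H2-Ab1, the ranges of i.v. GFP+, GFP- and i.c.v. GFP+ libraries did not overlap, whereas for Cd74 mouse 19's i.c.v. GFP+ library lay just above the lowest GFP- library.

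Ciita, the transactivator of these genes, followed the same order at a low level. It was at 46.0 and 46.9 CPM in i.v. GFP+, 1.47 and 6.14 CPM in i.c.v. GFP+, 7.85 and 4.90 CPM in i.v. GFP- and 11.1 and 9.39 CPM in i.c.v. GFP-. The lowest value rests on 13 UMIs (95% exact Poisson interval 0.783 to 2.52 CPM), and the male i.c.v. GFP+ library lay within the range of the GFP- libraries.

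The H2-M genes spanned narrower ranges. H2-DMa, the H2-M alpha chain, was at 665 and 606 CPM in i.v. GFP+, 395 and 406 CPM in i.c.v. GFP+, 308 and 262 CPM in i.v. GFP- and 334 and 314 CPM in i.c.v. GFP-. All 4 GFP+ libraries were therefore above all 4 GFP- libraries, i.c.v. included, unlike the classical genes. H2-DMb1, the main beta chain, was at 404 and 411 CPM in i.v. GFP+, 97.9 and 127 CPM in i.c.v. GFP+ and 126 to 161 CPM in GFP-. H2-DMb2, the other beta chain, was at 52.0 and 66.5 CPM in i.v. GFP+, 14.0 and 10.5 CPM in i.c.v. GFP+ and 7.36 to 20.5 CPM in GFP-. For both beta chains the i.v. GFP+ libraries stood above the rest, and i.c.v. GFP+ overlapped GFP-.

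The H2-O genes differed from each other in their spread, with a 4.09-fold span over the treated libraries for H2-Oa. H2-Oa, the alpha chain, was at 54.1 and 44.2 CPM in i.v. GFP+, 13.2 and 14.7 CPM in i.c.v. GFP+, 42.9 and 24.2 CPM in i.v. GFP- and 18.1 and 28.7 CPM in i.c.v. GFP-. The i.v. GFP+ pair stood above the rest, the nearest GFP- library being that of mouse 2, and the i.c.v. GFP+ pair was lowest. H2-Ob, the beta chain, stayed between 19.6 and 34.4 CPM in all 8 treated libraries, a 1.75-fold span against 42.5-fold for H2-Ab1, and its sorts and routes overlapped except that the i.v. GFP+ libraries (31.1 and 25.4 CPM) were above the i.c.v. GFP+ libraries (20.4 and 19.6 CPM).

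**Figure D1:**
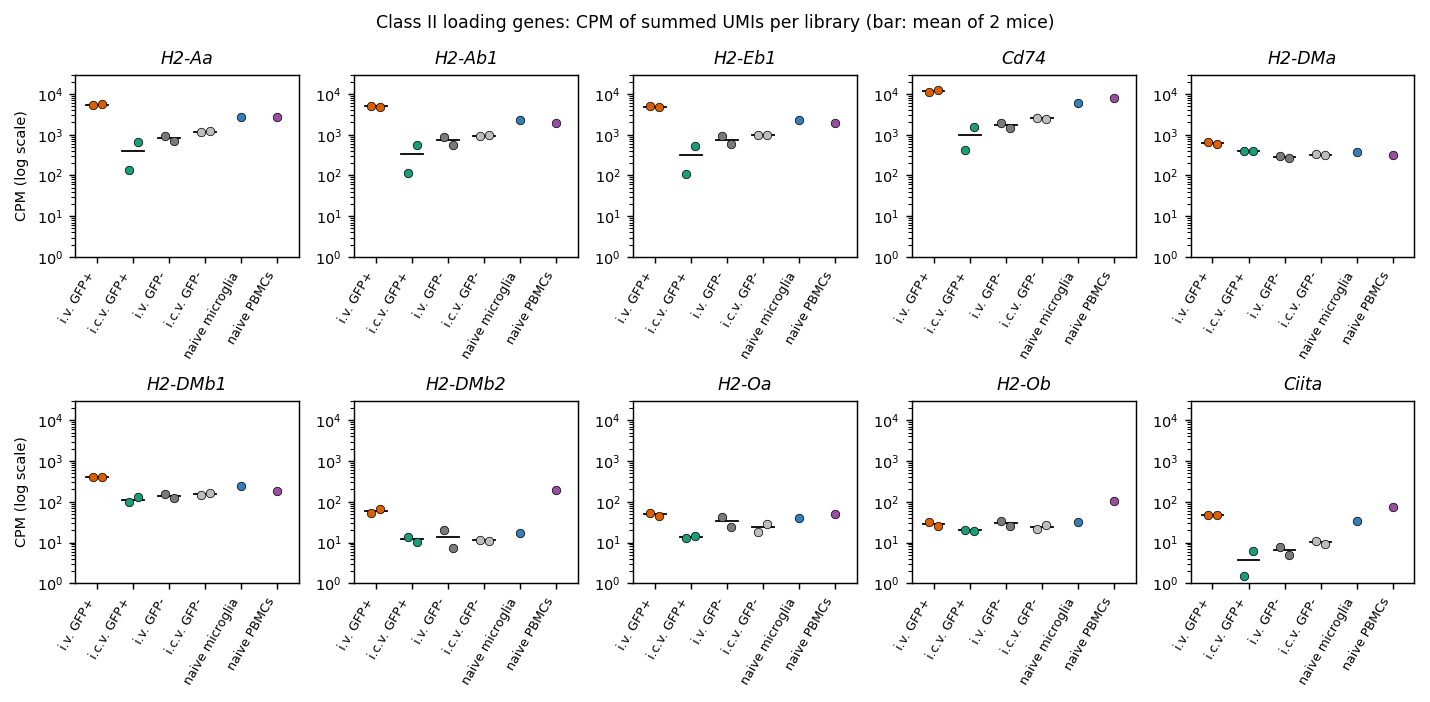
CPM of summed UMIs on a log axis for each of the 10 genes; each point is 1 library, the horizontal line is the mean of 2 mice, and naive microglia and naive PBMCs are single libraries. The classical genes and Ciita spread over more than an order of magnitude between i.v. and i.c.v. GFP+ libraries, H2-DMa is higher in all 4 GFP+ than in all 4 GFP- libraries, and H2-Ob stays between 19.6 and 34.4 CPM in the treated libraries.

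The first comparison asked whether the dosing route changed the genes in MLCs. Between i.v. and i.c.v. GFP+ libraries, 9 of the 10 genes were higher after i.v. dosing in edgeR's quasi-likelihood test (Benjamini-Hochberg adjusted p under 0.05 over 12540 genes), where 2.78% of all genes tested were called, 2.56% higher and 0.215% lower. The classical genes rose by log2 fold changes of 3.83 ± 0.64 (SE, H2-Aa, adjusted p = 0.0183), 3.98 ± 0.64 (H2-Ab1, 0.0155), 4.04 ± 0.66 (H2-Eb1, 0.0167) and 3.72 ± 0.54 (Cd74, 0.0100). Ciita rose by 3.66 ± 0.46 (0.00665), close to its targets in size. The H2-M and H2-O genes rose less: H2-DMa by 0.77 ± 0.15 (0.0332), H2-DMb1 by 1.96 ± 0.18 (0.00256), H2-DMb2 by 2.38 ± 0.37 (0.0135) and H2-Oa by 1.92 ± 0.30 (0.0132). H2-Ob did not pass, at 0.61 ± 0.19 (0.154).

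Support for these route calls differed by gene. Cd74, Ciita and H2-DMb1 were called in all 17 alternatives run, H2-Aa, H2-Ab1 and H2-Eb1 in 16, H2-DMb2 and H2-Oa in 13 and H2-DMa in 8. The settings named below do not cover every loss. H2-DMa was lost in 9, with an adjusted p of up to 0.543, and H2-DMb2 and H2-Oa in 4 each. Without cells carrying 2 or more markers of dendritic cells, monocytes, B cells, T or NK cells or neutrophils, the fold changes were 3.30 (H2-Aa, adjusted p = 0.0597), 3.42 (H2-Ab1, 0.0547), 0.54 (H2-DMa, 0.339), 0.82 (H2-DMb2, 0.495) and 0.55 (H2-Oa, 0.715). H2-DMb2 and H2-Oa were also lost without either i.c.v. GFP+ library, where the adjusted p was 0.103 and 0.139 without mouse 4 and 0.103 and 0.0683 without mouse 19. H2-DMa was lost without any 1 of the 4 GFP+ libraries or either i.c.v. GFP- library (adjusted p from 0.0555 to 0.297). Leaving out mouse 4's i.c.v. GFP+ library brought the number of all genes called from 348 to 42, and that of mouse 19 to 180.

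The same route comparison in GFP- libraries called none of the 10 genes, and none of 12540 genes (0%), with 1063 genes at an unadjusted p under 0.05 and 70 called by DESeq2. The classical genes and Ciita were lower after i.v. dosing by point estimate, with log2 fold changes between -0.82 ± 0.50 (Ciita) and -0.49 ± 0.59 (H2-Eb1). H2-DMa was at -0.30 ± 0.15 and H2-DMb1 at -0.26 ± 0.18. A p above the threshold does not show equal levels at 2 mice per route.

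The second comparison set all GFP+ against all GFP- libraries. H2-DMa rose by 1.06 ± 0.22 (adjusted p = 0.00822). In plain CPM it was higher in GFP+ cells in 4 of 4 mice, by 2.16-fold and 2.32-fold after i.v. and 1.18-fold and 1.29-fold after i.c.v. dosing. At 500 UMIs per cell mouse 4 ran the other way, with H2-DMa UMIs in 12.0% of GFP+ against 13.0% of GFP- cells. Each other mouse still had the higher share in GFP+ cells. The call held in 17 of 18 alternatives and was lost after thinning (0.70, 0.0501). H2-DMb2 was the only other member called, at 1.84 ± 0.61 (0.0460), and was lost with the mouse as a block (1.44, 0.108) and without any 1 of 6 libraries (adjusted p from 0.0589 to 0.125; all but the 2 i.c.v. GFP+ libraries). Against these 2 of 10, 32.5% of 11756 genes tested were called in this comparison, 16.6% higher and 15.9% lower in GFP+. The classical genes and Ciita had fold changes of 1.86 to 1.98 with SEs of 0.87 to 0.95 and did not pass (adjusted p from 0.120 to 0.151). Without mouse 4's i.c.v. GFP+ library all 4 classical genes, Ciita and H2-DMb1 passed (adjusted p from 0.0197 to 0.0257). Since GFP+ libraries had TMM factors of 0.869 to 0.966 and GFP- libraries 1.04 to 1.16, scaling by library totals alone lowered the median gene by 0.27 on the log2 scale in GFP+ and changed the split of calls from 1951 higher and 1869 lower to 770 higher and 3803 lower. H2-DMa kept its call on that scale (0.77, adjusted p = 0.0112), and H2-DMb2 did not (1.52, 0.0580).

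Within mice, in plain CPM, the classical genes, Ciita, H2-DMb1 and H2-Oa ran in opposite directions after the 2 routes. By that measure H2-DMa was higher in GFP+ cells after both. H2-Ab1 was 5.68-fold and 8.52-fold higher in GFP+ than in GFP- cells of the i.v. mice (2 and 27), and stood at 0.13 and 0.57 of the GFP- level in the i.c.v. mice (4 and 19). Ciita gave 5.87 and 9.57 against 0.133 and 0.655, and H2-DMb1 gave 2.67 and 3.27 against 0.666 and 0.789. H2-Oa gave 1.26 and 1.82 against 0.730 and 0.512. The interaction of sort and route, which tests this difference, was called for 7 of 10 members, against 1.80% of all 12540 genes called in that direction and 0.112% in the other. Its log2 value was 4.47 ± 0.84 for H2-Aa (adjusted p = 0.0396), 4.47 ± 0.84 for H2-Ab1 (0.0391), 4.54 ± 0.87 for H2-Eb1 (0.0412), 4.39 ± 0.72 for Cd74 (0.0245), 4.48 ± 0.67 for Ciita (0.0206), 2.22 ± 0.25 for H2-DMb1 (0.00949) and 1.07 ± 0.21 for H2-DMa (0.0455). H2-DMb2 (2.23 ± 0.55, 0.0843), H2-Oa (1.51 ± 0.42, 0.108) and H2-Ob (0.39 ± 0.27, 0.511) did not pass.

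Among the 7, H2-DMb1 was called in all 18 alternatives, Ciita in 14, Cd74 in 13, H2-Aa, H2-Ab1 and H2-Eb1 in 10 each and H2-DMa in 5, always with the same direction. The classical calls were lost without cells of other types (adjusted p from 0.0785 to 0.101), where Ciita was at 3.798 (0.0785), and H2-Ab1 was lost without either i.v. GFP- or i.v. GFP+ library or either i.c.v. GFP- library (adjusted p from 0.0660 to 0.158). With the mouse as a block the number of genes called rose from 240 to 678, H2-Oa passed as well (1.53, 0.0204), and all 7 members stayed called (adjusted p from 0.00358 to 0.0185). The count fell to between 41 and 135 without any 1 of 6 libraries (both i.v. GFP-, i.v. GFP+ of mouse 27, i.c.v. GFP- of mouse 4 and both i.c.v. GFP+). On library totals the interaction calls split into 184 and 36 instead of 226 and 14.

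**Figure D2:**
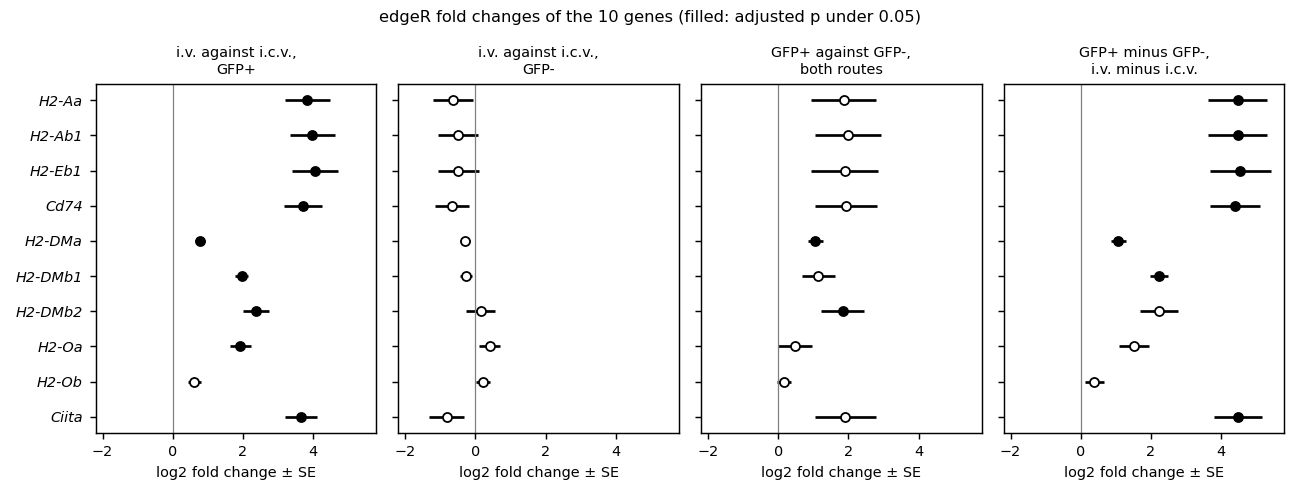
log2 fold changes of the 10 genes with their SE in the 4 edgeR comparisons; filled points have an adjusted p under 0.05. The classical genes and Ciita lie between 3.66 and 4.04 for route in GFP+ cells while H2-DMa lies at 0.77, and no gene is filled for route in GFP- cells.

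The ratio of each accessory gene to H2-Ab1 within a library does not depend on the library total. Ciita kept a nearly constant ratio, from 0.858 to 1.25 UMIs per 100 H2-Ab1 UMIs over the 8 treated libraries, a 1.46-fold span while H2-Ab1 itself spanned 42.5-fold. In detail, it was 0.923 and 0.964 in i.v. GFP+, 1.25 and 1.12 in i.c.v. GFP+, 0.893 and 0.858 in i.v. GFP- and 1.19 and 0.973 in i.c.v. GFP-. The 95% counting intervals of the 8 values all overlapped each other, the widest being 0.665 to 2.15 for mouse 4's i.c.v. GFP+ library. H2-Eb1, at 91.0 to 107, and H2-Aa, at 105 to 126 per 100 H2-Ab1 UMIs, spanned 1.17-fold and 1.20-fold. Cd74, at 223 to 355, spanned 1.59-fold, and its counting intervals did not all overlap.

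H2-DMa showed the opposite behaviour. It was at 13.3 and 12.5 UMIs per 100 H2-Ab1 UMIs in i.v. GFP+, 337 and 74.1 in i.c.v. GFP+, 35.1 and 45.8 in i.v. GFP- and 35.8 and 32.5 in i.c.v. GFP-. The 3 ranges did not overlap, and in mouse 4's i.c.v. GFP+ library H2-DMa UMIs outnumbered those of H2-Ab1 (3493 against 1037). H2-Ob gave 0.623 and 0.523 in i.v. GFP+, 17.4 and 3.58 in i.c.v. GFP+ and 2.26 to 4.43 in GFP- libraries. H2-Oa gave 1.09 and 0.908, 11.3 and 2.68, and 1.94 to 4.88 in the same order. H2-DMb1 gave 8.10 and 8.45, 83.4 and 23.3, and 15.7 to 22.0. H2-DMb2 gave 1.04 and 1.37, 12.0 and 1.93, and 1.13 to 2.34. Each accessory gene was thus lowest, relative to H2-Ab1, where H2-Ab1 was highest, apart from H2-DMb2, for which mouse 27's i.v. GFP+ library lay above 3 GFP- libraries.

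Between sorts none of the 6 ratios differed in a two-sided exact permutation test over 4 against 4 libraries (p from 0.429 to 0.971, adjusted 0.971 for each over the 6 ratios; the smallest p this design can give is 0.0286). For the 5 accessory genes the mean ratio was lower in GFP+ than in GFP- cells after i.v. and higher after i.c.v. dosing. That test therefore pools opposite directions. GFP+ ratios also spread widely, as for H2-DMa (109 ± 154 against 37.3 ± 5.83 in GFP-, mean ± SD). Against these means, H2-DMb2 was higher in GFP+ cells of mouse 27 (1.37 against 1.29), and H2-Oa lower in those of mouse 19 (2.68 against 2.97). For Ciita the ratio was higher in GFP+ cells in 4 of 4 mice, with overlapping counting intervals, and this within-mouse difference was not tested. In addition, 2 against 2 libraries cannot go below 0.333, so the routes are described without a test. Against the 4 classical genes together, Ciita stayed between 0.147 and 0.196 UMIs per 100, and H2-DMa ranged from 2.18 to 50.8.

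**Figure D3:**
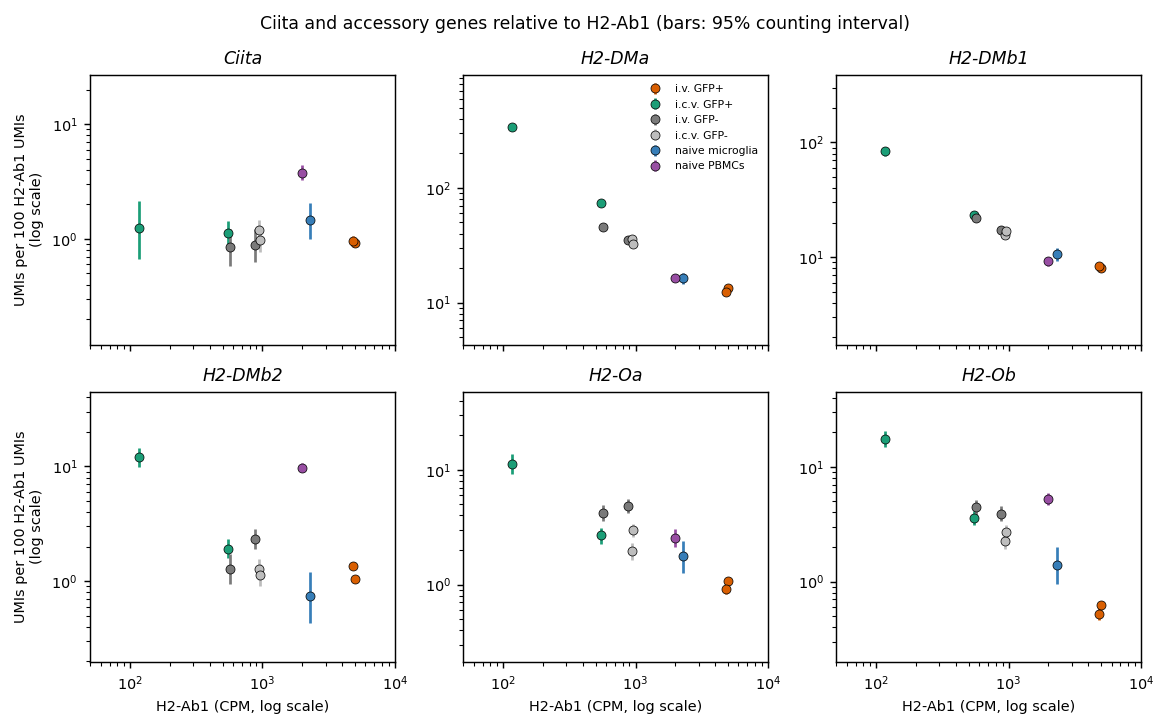
UMIs of Ciita and the accessory genes per 100 H2-Ab1 UMIs against the H2-Ab1 level in CPM, both on log axes, so that H2-Ab1 enters both axes; bars are 95% counting intervals. Ciita forms a flat line at 0.858 to 1.25 in the treated libraries, whereas H2-DMa falls from 337 to 12.5 as H2-Ab1 rises.

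The levels above mix how many cells carry a gene and how much each carries, so cells were also thinned to 500 UMIs each. H2-Ab1 UMIs were then found in 30.9% and 30.3% of i.v. GFP+ cells, 2.37% and 11.5% of i.c.v. GFP+ cells, 3.81% and 5.47% of i.v. GFP- cells and 12.5% and 9.84% of i.c.v. GFP- cells. H2-DMa UMIs were found in 21.1% and 15.8%, 12.0% and 14.1%, and 9.68% to 13.0% of cells in i.v. GFP+, i.c.v. GFP+ and GFP- libraries. The 13.0% was that of mouse 4's GFP- library, above the 12.0% of its GFP+ library. Outside i.v. GFP+, cells with an H2-DMa UMI were more frequent than cells with an H2-Ab1 UMI in every treated library. In both i.v. GFP+ libraries they were less frequent. The gap was widest in mouse 4's i.c.v. GFP+ library (12.0%, 95% interval 10.8 to 13.3, against 2.37%, 1.82 to 3.02). Such shares set 2 genes side by side, which UMI counts at transcript ends do not put on 1 scale. Ciita UMIs were found in 1.82% and 2.29% of i.v. GFP+ cells and in 0.132% to 0.396% of cells in the other 6 libraries. As a background, naive astrocytes and the neuron sort gave 0% to 0.0873% and 0% to 0.207% of cells for each member at the same depth.

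**Figure D4:**
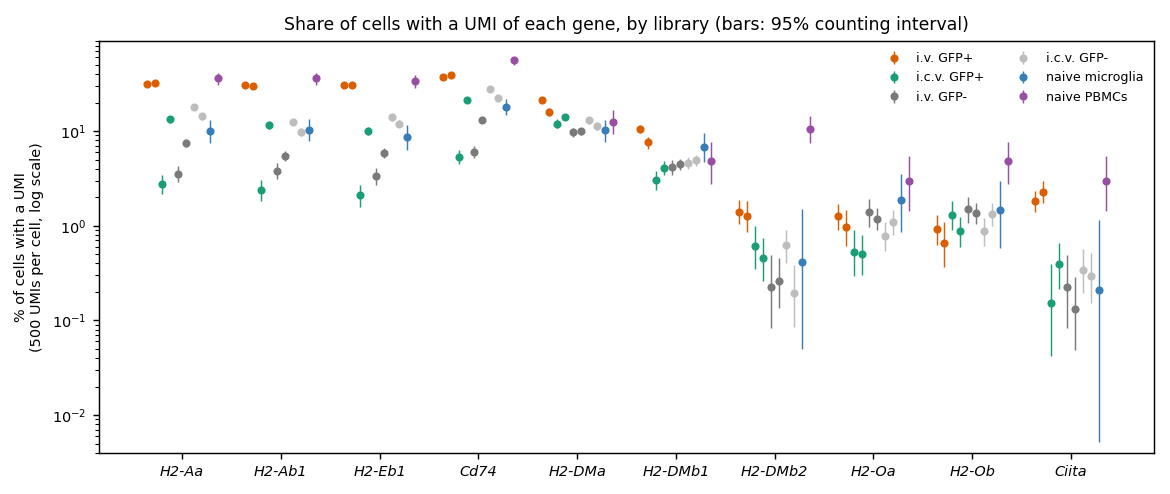
Percent of cells with at least 1 UMI of each gene after thinning every cell to 500 UMIs, on a log axis, by library. H2-Ab1 runs from 2.37% to 30.9% of cells in the treated libraries, H2-DMa from 9.68% to 21.1%, and H2-Ob from 0.662% to 1.495%.

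For the H2-O genes, positive cells were not more frequent in i.v. GFP+ than in all GFP- libraries. H2-Oa UMIs were found in 1.26% and 0.971% of i.v. GFP+ cells, 0.534% and 0.509% of i.c.v. GFP+ cells and 0.781% to 1.38% of GFP- cells. H2-Ob UMIs were found in 0.927% and 0.662%, 1.30% and 0.877%, and 0.873% to 1.495% of cells in the same order. At this depth the i.v. GFP+ share of H2-Oa lay within the GFP- range, although its summed CPM lay above. H2-DMb2 UMIs were found in 1.41% and 1.28% of i.v. GFP+ cells and in 0.196% to 0.620% of cells in the other 6 libraries.

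Cells were next ranged by their summed H2-Aa, H2-Ab1 and H2-Eb1 UMIs at 500 UMIs per cell, a range of a count and not a cell type. Cells with 3 or more such UMIs made up 25.5% and 23.5% of i.v. GFP+, 1.03% and 5.15% of i.c.v. GFP+, 1.91% and 1.91% of i.v. GFP- and 5.88% and 4.75% of i.c.v. GFP- cells. In mouse 2's i.v. GFP+ library, 131 cells held exactly 2 and 54 exactly 3 of these UMIs, of 3344 cells. From cells with 0 to cells with 3 or more of these UMIs, H2-DMa was higher in 8 of 8 libraries, going from 278 ± 63.6 to 643 ± 176 CPM (mean ± SD, n = 8), a 2.31-fold difference. H2-DMb1 was higher in 8 of 8 libraries, going from 74.5 ± 9.65 to 485 ± 194 CPM, or 6.51-fold. Ciita was higher in 8 of 8 libraries, going from 3.21 ± 4.17 to 119 ± 67.4 CPM, on few UMIs per library. H2-Ob was higher in 5 of 8 libraries (21.0 ± 6.93 to 27.4 ± 21.0 CPM) and H2-Oa in 4 of 8 (17.5 ± 7.53 to 30.03 ± 33.3 CPM). H2-DMb2 was higher in 6 of 8 (9.29 ± 4.50 to 31.8 ± 32.1 CPM) and had 0 UMIs in the 27 and 182 such cells of the i.c.v. GFP+ libraries, which allows up to 222 and 33.0 CPM. These are descriptions, since libraries hold different numbers of cells in each range and the values share a total. Cells with 0 of these chain UMIs still carried H2-DMa at 208 to 409 CPM in the 8 treated libraries, and Cd74 at 88.5 to 526 CPM.

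The cells that carried H2-DMb2 and H2-Oa after i.v. dosing were few. Cells with 2 or more of 8 dendritic cell markers made up 4.84% and 5.25% of i.v. GFP+ cells and held 11.9% and 17.8% of all UMIs of those libraries (mice 2 and 27). They held 72.1% and 69.5% of the H2-DMb2 UMIs and 67.9% and 69.5% of the H2-Oa UMIs. The same cells held 30.6% and 46.1% of the H2-Ab1 UMIs, 37.0% and 35.4% of the Ciita UMIs and 21.1% and 29.7% of the H2-DMa UMIs. In i.c.v. GFP+ libraries such cells were 0.420% and 0.848% of all cells, 11 and 30 cells, with 1 and 0 UMIs of H2-DMb2. The part of these cells alone in the difference between routes was not tested; the fit given beside the route calls left out all cells with markers of any of the 5 types (10.7% and 9.49% of i.v. GFP+ cells).

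In i.v. GFP+ cells with none of the 5 other-type marker sets, H2-Ab1 was still at 3806 and 2883 CPM and Ciita at 32.0 and 36.7 CPM, against 113 and 527 CPM and 1.54 and 6.11 CPM in i.c.v. GFP+ cells chosen the same way. H2-DMb2 was at 17.6 and 25.5 against 14.2 and 10.9 CPM, and H2-Oa at 20.7 and 16.6 against 12.7 and 13.9 CPM. In these cells H2-Ab1 and Ciita differed more between routes than H2-DMb2 and H2-Oa did. Cells with fewer than 2 markers of each list remain among them. The part of other cell types in the route differences was not tested. The other marker lists also moved with route in GFP+ libraries: the summed levels were 263 to 426 against 35.7 to 60.8 CPM for dendritic cells (6 of 8 markers higher without overlap), 180 to 280 against 2.38 to 3.21 CPM for monocytes (7 of 8), 1665 to 3300 against 111 to 113 CPM for neutrophils (7 of 8) and 13.3 to 22.6 against 0.183 to 0.226 CPM for T or NK cells (5 of 8). B cell markers did not (166 to 181 against 190 CPM, 0 of 8). How many of all genes separate the routes without overlap was not counted, so these marker counts have no background share beside them. In GFP- libraries the summed neutrophil level was instead lower after i.v. dosing (338 to 510 against 1179 to 6030 CPM). The GFP- route ranges overlapped for monocytes (21.5 to 40.8 against 40.5 to 143 CPM), dendritic cells and T or NK cells. Fewer cells of a type and less RNA per cell cannot be told apart in summed counts.

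**Figure D5:**
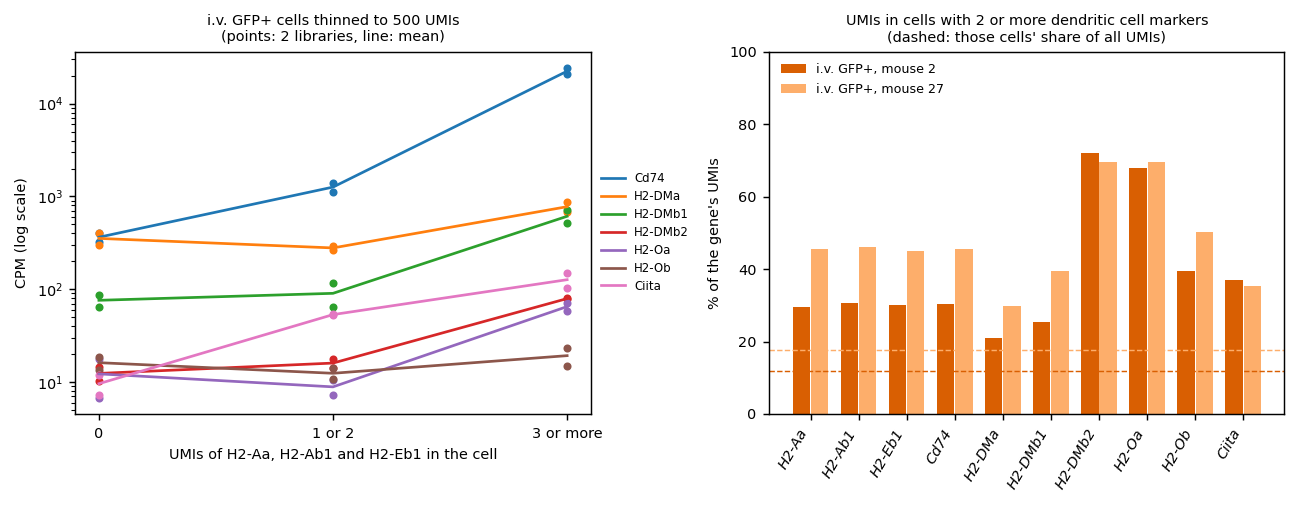
Left, CPM of each gene in i.v. GFP+ cells with 0, 1 or 2, and 3 or more summed H2-Aa, H2-Ab1 and H2-Eb1 UMIs at 500 UMIs per cell; right, percent of each gene's UMIs that lie in cells with 2 or more dendritic cell markers in the 2 i.v. GFP+ libraries, the dashed lines marking those cells' share of all UMIs (11.9% and 17.8%). H2-DMb2 and H2-Oa lie at 67.9% to 72.1% on the right, above every other member.

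The naive libraries, 1 each and so without a test, set the scale. Naive microglia had 2304 CPM of H2-Ab1, 376 CPM of H2-DMa, 244 CPM of H2-DMb1, 17.2 CPM of H2-DMb2, 40.5 CPM of H2-Oa, 32.4 CPM of H2-Ob and 33.4 CPM of Ciita (33 UMIs). The classical genes and Ciita thus lay between the i.v. GFP+ and the GFP- libraries there. Markers of other cell types were also high in that library, with summed levels of 301 CPM for dendritic cells (59.9 to 108 in GFP-; 6 of 8 detected, Clec9a and Xcr1 at 0), 272 CPM for monocytes (5 of 8; 21.5 to 143 in GFP-), 9234 CPM for neutrophils (7 of 8; 338 to 6030 in GFP-) and 113 CPM for T or NK cells (7 of 8; 0.460 to 7.71 in GFP-), and their part in the class II levels was not tested. Ciita stood at 1.45 UMIs per 100 H2-Ab1 UMIs (0.996 to 2.04). In that library 86.0% of the H2-Aa, H2-Ab1 and H2-Eb1 UMIs came from the top 5% of cells, within the 54.7% to 98.1% of the GFP- and i.c.v. GFP+ libraries and above the 34.4% and 41.0% of the i.v. GFP+ libraries, and only 482 of 1274 cells reached 500 UMIs. PBMCs had 1978 CPM of H2-Ab1 but 192 CPM of H2-DMb2, 104 CPM of H2-Ob and 74.9 CPM of Ciita, each above every treated library. Their Ciita ratio was 3.78 UMIs per 100 H2-Ab1 UMIs (3.27 to 4.36), above the 0.858 to 1.25 of the treated libraries. Cells with 2 or more B cell markers held 51.8% of the PBMC UMIs and 93.3% of those of H2-DMb2, 89.5% of H2-Oa, 88.6% of H2-Ob and 43.3% of H2-DMb1. In the neuron sort 7 members had 0 UMIs (a count of 0 allows up to 0.807 CPM) and none exceeded 0.538 CPM, and in astrocytes none exceeded 1.87 CPM. The neuron sort held summed levels of 52653 CPM of oligodendrocyte markers and 110 CPM of neuron markers, so its values do not describe neurons alone.

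Of the other genes of the pathway, 34 listed genes were detected as features (RFX, NF-Y and CREB factors, interferon-gamma input, proteases, further class II genes, turnover and costimulation). For route in GFP+ cells 1 of 34 was called, where 2.78% of all genes were, so the list did not stand out from the background. This was H2-Eb2, a further class II beta chain gene, with 24 and 14 UMIs after i.v. and 0 and 0 after i.c.v. dosing, at least 4.67-fold higher against a floor of 3 counts per library. With 0 to 3 UMIs in the GFP- libraries, it passed the filter on low counts only through the i.v. GFP+ pair. Its call therefore adds no support, and the sort comparison did not test it. The RFX subunit genes, whose products bind the X box, had log2 fold changes of 0.17 ± 0.19 (Rfx5, adjusted p = 0.7103), 0.18 ± 0.16 (Rfxap, 0.617) and 0.29 ± 0.17 (Rfxank, 0.456). The median over the list was 0.03. Route in GFP- cells and the interaction called none of the 34.

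Between sorts, 9 of 33 tested pathway genes were higher and 4 lower in GFP+ cells, where 16.6% and 15.9% of all genes were, with a median of 0.10 against 0.01 over all genes. Among those with the largest changes were Cd40, a costimulatory receptor (1.55), Ctsl, a lysosomal protease (-0.81), Ctsh, another one (0.67), Lamp1, a lysosomal membrane protein (0.60), Icosl, a costimulatory ligand (0.53), Nfya, a subunit of NF-Y (-0.52), and March1, a ubiquitin ligase that acts on class II molecules (-0.47).

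Over the 8 treated libraries, Pearson's r of log2(CPM + 1) with H2-Ab1 was 0.999 for H2-Aa and H2-Eb1, 0.996 for Cd74, 0.989 for Ciita, 0.948 for H2-DMb1, 0.839 for H2-Oa, 0.767 for H2-DMb2, 0.631 for H2-DMa and 0.539 for H2-Ob. These are descriptions over libraries that fall into groups and come in pairs from 4 mice. Of 8033 genes with a mean of at least 10 CPM, the non-members closest to H2-Ab1 were Clec4b1 (0.978), Ahnak (0.972), Cfp (0.971), 1700025G04Rik (0.970) and Alcam (0.967). Those closest to Ciita were Cfp (0.991), Plbd1 (0.987), and Alcam, St3gal4 and Vim (each 0.982). For H2-DMa, added after the values were seen, they were Ms4a4c (0.993), Naca (0.989), which encodes a subunit of a ribosome-bound chaperone complex, and the ribosomal protein genes Rps9 (0.988), Rpl24 (0.987) and Rpl36 (0.985).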

How the data were processed

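Cells from whole brain or blood were sorted and profiled by 10x 3′ single-cell RNA-seq in 12 libraries. The authors deposited raw UMI counts per gene and barcode, made with Cell Ranger 3.1.0 per the file headers and the mm10 build per the labels; strand use in counting is not given in the sources used here. A barcode counted as a cell when it had 200 genes or more and no more than 10% of UMIs from mitochondrial genes (27439 of 31104 in treated libraries). Counts of cells were summed per library, so the replicate is the mouse. No doublet caller was run. CPM are plain shares of library totals. Tests used edgeR 4.0.16 (R 4.3.3) quasi-likelihood fits with TMM scaling and filtering on low counts, Benjamini-Hochberg adjusted over all genes tested at 0.05. Sort was fitted over 4 against 4 libraries, and route and the interaction over the 4 groups of 2. Ratios were compared by exact permutation (scipy 1.17.1). Intervals are 95% exact Poisson or Clopper-Pearson and, like the floor of 3 counts, cover counting error only.

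The pairing of GFP+ and GFP- libraries comes from the labels, which give the same 4 animals; the deviations of paired libraries from their sort's mean correlated at 0.137, -0.251, -0.310 and 0.00166 (mice 2, 27, 4 and 19). Alternatives were all barcodes, a stricter cell filter (500 genes, 5% mitochondrial UMIs), leaving out cells with 2 or more markers of another type, thinning to 500 UMIs, DESeq2 1.42.0, upper-quartile scaling, no filter on low counts, sex as a covariate, the mouse as a block and leaving out each library. Library totals without TMM factors and the promoter letters were chosen after seeing the data. All members were named, together with called pathway genes (the 8 largest, 1 of which is not reported here) and the 5 genes most like H2-Ab1 and Ciita. The members and lists were chosen with earlier results of these data known. On simulated counts, 4-fold changes were recovered for 97.3% of changed genes for sort (11833 genes run) and 71.5% for the interaction (12219).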

Additional observations from a re-analysis of the deposited data

Results flagged for a closer look

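In 7 groups of 4 libraries, of 70 tested, 1 library lay far from the other 3. Among GFP+ libraries these were the i.c.v. library of mouse 4 for H2-DMb2 (12.0 UMIs per 100 H2-Ab1 UMIs and 1.80 per 100 UMIs of the 4 classical genes) and for H2-Oa (11.3 per 100 H2-Ab1 UMIs). Among GFP- libraries they were the i.v. library of mouse 2 for H2-DMb2 (2.34 per 100 H2-Ab1 UMIs and 0.435 per 100 classical UMIs), the i.v. library of mouse 27 for H2-Eb1 (586 CPM) and the i.c.v. library of mouse 4 for cells with an H2-DMb2 UMI (0.620% at 500 UMIs per cell).

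The difference between GFP+ and GFP- cells itself differed between routes, by the interaction term, for 7 genes. The log2 differences, i.v. minus i.c.v., were 4.47 (H2-Aa), 4.47 (H2-Ab1), 4.54 (H2-Eb1), 4.39 (Cd74), 4.48 (Ciita), 2.22 (H2-DMb1) and 1.07 (H2-DMa).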

How the results depend on the processing

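For sort, 3820 genes were called, and 1231 after thinning, with 2177 to 3791 when single libraries were left out (lowest without i.v. GFP- mouse 27). For route in GFP+ cells, 348 were called, and 54 without cells of other types, 82 after thinning, 526 with DESeq2, 679 with no filter and 42 to 293 with single libraries left out. For route in GFP- cells, 0 were called, and 3, 70 and 83 after thinning, with DESeq2 and with no filter, and 0 to 23 with single libraries left out. For the interaction, 240 were called, and 142 with the stricter filter, 12 without cells of other types, 70 after thinning, 598 with DESeq2, 698 with no filter, 412 with sex and 678 with the mouse as a replicate block, with 41 to 239 when single libraries were left out. The causes were not tested. The block gave 3217 calls for sort, where H2-DMb2 was lost (1.44), and changed no other member's call except H2-Oa in the interaction. No paired analysis was possible for route because each mouse had 1 route.

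Signs turned only in values that were not called. For sort these were H2-Oa and H2-Ob without cells of other types (-0.35, -0.16) and after thinning (-0.23, -0.33), and H2-Ob on library totals (-0.14) and without i.v. GFP+ mouse 2 (-0.017), where leaving out single libraries gave up to 0.28. For route in GFP+ cells, H2-Ob was at -0.022 and -0.33 without cells of other types and after thinning, and for the interaction at -0.20 and -0.62. For route in GFP- cells, H2-DMb2 was at -0.80 after thinning, and without i.v. GFP- mouse 2 H2-DMb2, H2-Oa and H2-Ob were at -0.77, -0.081 and -0.038, with highest values of 0.74, 0.77 and 0.44 without i.v. GFP- mouse 27. The log2 ratio of GFP+ to GFP- means per H2-Ab1 turned without i.c.v. GFP+ mouse 4 for H2-DMa (-0.16), H2-DMb1 (-0.43), H2-DMb2 (-0.060), H2-Oa (-1.17) and H2-Ob (-1.08), and for H2-Oa after thinning (-0.72) and without i.c.v. GFP- mouse 4 (-0.015). The highest values of these 5 ratios with single libraries left out were 1.92, 1.10, 1.75, 0.52 and 1.11. Depth limits Ciita most, with 13 UMIs in its lowest treated library.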
